A study of Mus musculus with 10 samples.

Results

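The genes described here are 9 components of the Nodal pathway and its feedback antagonists: Nodal, Tdgf1, Acvr2b, Foxh1, Lefty1, Lefty2, Cer1, Smad7 and Skil. They were chosen by name and followed through the binding sites of the homeodomain transcription factor OTX2. A binding site counted for a gene when the centre of its peak lay within 50 kb of the gene on the mouse build mm10, or when the authors' deposited table named the gene as the nearest one. All peaks of the latter kind also lay within 50 kb. By this rule 56 of 42711 OTX2 peaks in definitive endoderm (DE) and 25 of 6319 in epiblast stem cells (EpiSCs) belonged to the 9 genes.

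The peaks come from CUT&RUN, in which an antibody directs a nuclease to its target so that nearby DNA is released and sequenced. OTX2 carried an HA tag in the mouse line labelled 7H OTX2-dTAG-EGFP, of a BL6/129 hybrid strain, and each sample held 500000 cells. The EpiSC group was 2 anti-HA samples of cells kept with Activin A (20 ng/ml), FGF2 (12.5 ng/ml) and NVP (175 nM). The DE group was 2 anti-HA samples of the same line after 16 h in Activin A (40 ng/ml) with CHIR (3 µM) and a further 24 h in Activin A (100 ng/ml) with LDN (100 nM), sorted for live cells. Both groups carry the tagged allele, and both grew in Activin A, which signals through the receptors that Nodal uses. Controls were 3 IgG samples of tagged EpiSCs and 1 anti-HA sample of parental DE cells, which lack the tag (line 5.8). IgG samples of DE were not analysed here. The authors merged the HA replicates into 1 peak list per state. No value below therefore has a replicate spread, no test between the states was possible, and each value describes these lists. Peak lists carry no expression, so the identity of the cells could not be checked against marker genes, and read depth was unknown.

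Nodal is a secreted ligand of the TGF-β family that patterns the early embryo and drives the formation of mesoderm and endoderm. It signals through Activin receptors with the help of a co-receptor, Cripto, encoded by Tdgf1, and activated SMAD proteins then enter the nucleus and act with FOXH1. The pathway switches on its own inhibitors, among them the Lefty proteins, so that ligand and antagonist form a feedback loop. OTX2 is known for its part in the anterior epiblast and the anterior endoderm, where Lefty1 and Cer1 are expressed.

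The promoter table of RefSeq (GRCm38.p6, the assembly behind mm10) had entries for 4 of the 9 genes: Nodal, Tdgf1, Cer1 and Acvr2b. Of these, a peak overlapped the 250 bases before the start of Cer1 and of Acvr2b, in DE only. These 2 sequences are shown because, of the 4 promoters with an entry, they are the ones that a peak touched. Promoters of the members without an entry could not be examined in this way. The Cer1 stretch (chr4:82885152-82885401, minus strand) lay wholly inside a DE peak of 308 bp. Capitals mark CAGAC, the core of SMAD sites, and TAAT, the core that homeodomain proteins recognise, on either strand.
Cer1: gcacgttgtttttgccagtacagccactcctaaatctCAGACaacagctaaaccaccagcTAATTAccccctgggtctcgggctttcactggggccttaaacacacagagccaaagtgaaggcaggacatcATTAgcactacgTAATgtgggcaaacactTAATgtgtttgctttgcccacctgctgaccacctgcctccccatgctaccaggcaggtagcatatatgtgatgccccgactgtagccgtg
In the Acvr2b stretch (chr9:119401928-119402177, plus strand) capitals mark the 73 bases of the DE peak.
Acvr2b: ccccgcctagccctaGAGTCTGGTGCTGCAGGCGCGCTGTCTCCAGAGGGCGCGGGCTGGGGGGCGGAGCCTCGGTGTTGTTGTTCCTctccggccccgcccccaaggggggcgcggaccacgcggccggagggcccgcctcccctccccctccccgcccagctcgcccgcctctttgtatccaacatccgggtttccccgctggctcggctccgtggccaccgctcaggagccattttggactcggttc

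The searched motifs were TAATCC for OTX2, AATNNACA for FOXH1 and CAGAC for SMAD proteins, on both strands, and TAAT was added after the sequences had been seen. TAAT is part of TAATCC, so their matches overlap. Neither printed promoter held TAATCC or AATNNACA, and each held 1 match to CAGAC. The Cer1 stretch had 5 matches to TAAT, a number reached by 5.54% of all 32851 promoter stretches of this length and by 1.12% of the 5876 that overlapped a DE peak. Acvr2b had none. The Tdgf1 promoter, which no peak of either state overlapped, also held 5 matches to TAAT, with 2 to AATNNACA and 1 to CAGAC, so these matches did not separate member promoters with a peak from those without. Across all stretches TAATCC occurred in 6.25%, AATNNACA in 10.9%, CAGAC in 42.2% and TAAT in 54.9%. The corresponding shares of stretches under a DE peak were 7.25%, 6.43%, 41.3% and 41.8%.

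Peaks in the windows of the 9 genes also fell on the promoters of their neighbours, and 4 of these sequences are shown because they hold a peak in full or carry a peak of both states. The Exog promoter, which carried part of a DE peak, is not shown. They were chosen after the peaks had been seen. In the Nodal window the promoters of Pald1 and Eif4ebp2 each carried a peak in both states. The DE peak at Pald1 (chr10:61383433-61383565, printed on the minus strand) lay wholly in the promoter stretch, as did the EpiSC peak inside it. For Eif4ebp2 the 83 bases that both peaks covered (chr10:61452837-61452919, minus strand) are given. In the Lefty2 window the promoter of Sde2 also carried a peak in both states, which had 39 of its bases in common (chr1:180850901-180850939, plus strand). It held no match to any searched motif. The DE peak at the promoter of Cldn11 (chr3:31149739-31149869, plus strand) was the sole DE peak within 50 kb of Skil. It held the sequence GGATTA, which is TAATCC on the other strand. Capitals mark matches to any of the searched motifs.
Pald1: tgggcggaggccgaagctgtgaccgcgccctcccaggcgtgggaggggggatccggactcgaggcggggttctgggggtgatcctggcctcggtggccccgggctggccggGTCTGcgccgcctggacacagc
Eif4ebp2: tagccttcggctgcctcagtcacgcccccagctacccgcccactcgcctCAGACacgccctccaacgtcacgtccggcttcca
Sde2: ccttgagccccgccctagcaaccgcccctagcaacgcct
Cldn11: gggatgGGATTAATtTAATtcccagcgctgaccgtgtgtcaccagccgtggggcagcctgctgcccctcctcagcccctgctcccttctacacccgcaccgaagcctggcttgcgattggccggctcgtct

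All 9 genes had a DE peak within 50 kb and 8 had an EpiSC peak, the exception being Acvr2b. Among 21900 protein-coding genes the shares were 82.8% in DE and 40.8% in EpiSCs, so a DE peak within this distance was common for any gene. A peak overlapping one of the other state lay within 50 kb of 6 of the 9 genes, against 37.1% of coding genes. The authors' deposited table named 8 members as the nearest gene of a DE peak (all but Skil), against 50.4% of coding genes. It named 6 members for EpiSC peaks (all but Foxh1, Smad7 and Acvr2b), against 15.3%.

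The number of peaks differed widely between the genes. Lefty2 had 16 DE and 7 EpiSC peaks, Foxh1 had 13 and 6, and Lefty1 had 10 and 3. At Lefty2, 13 of the 16 DE and 6 of the 7 EpiSC peaks were assigned to other genes, Lefty1 among them. At Foxh1 this held for 12 of the 13 DE and all 6 EpiSC peaks. High counts here are thus counts of the window, neighbours included. Nodal and Tdgf1 each had 6 DE and 4 EpiSC peaks, and Cer1 had 6 and 2. Smad7 had 4 and 1, Acvr2b 4 and 0, and Skil 1 and 1. The median over the 9 genes was 6 DE and 3 EpiSC peaks, compared with 3 and 0 over all coding genes. For scale, 0.849% of coding genes had at least as many DE peaks as Lefty2, 25.3% as many as Nodal, Tdgf1 or Cer1, and 45.3% as many as Smad7 or Acvr2b. In the EpiSC list 1.07% reached the count of Lefty2, 1.94% that of Foxh1 and 5.80% that of Nodal and Tdgf1. The window includes the gene body, so long genes have more room for peaks. Among the 7939 coding genes of at most 10 kb, 0.0882% reached the count of Lefty2 in DE and 1.73% in EpiSCs, and the shares for Foxh1 were 1.15% and 2.92%. For Nodal and Tdgf1 they were 18.9% and 7.46%.

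**Figure D1:**
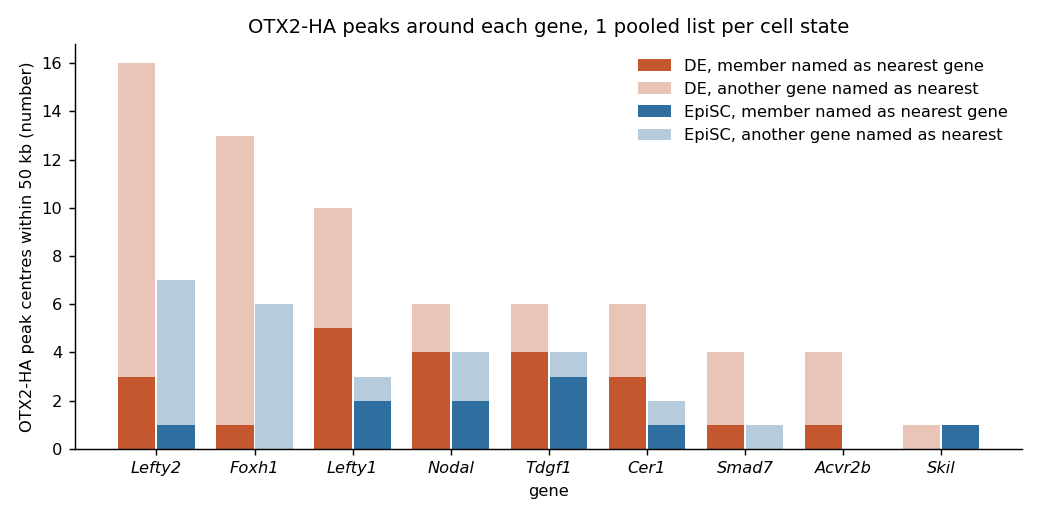
Number of OTX2-HA peak centres within 50 kb of each of the 9 genes, in DE (orange) and EpiSC (blue); solid bars are peaks whose nearest gene in the authors' deposited table is the gene itself, pale bars those assigned to another gene. Lefty2 had the most, 16 in DE and 7 in EpiSC. Of the DE peaks, 13 of 16 for Lefty2 and 12 of 13 for Foxh1 were assigned to other genes. There is 1 pooled list per state, so there are no error bars.

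**Figure D2:**
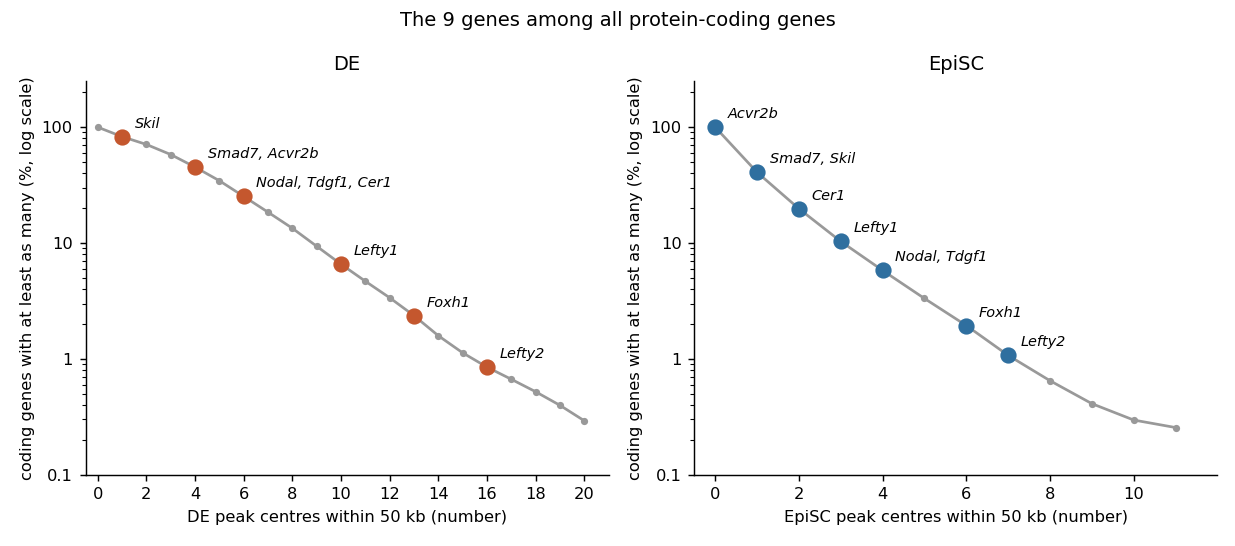
Share of protein-coding genes (log scale, %) with at least a given number of peak centres within 50 kb (grey), with the 9 genes marked at their own counts, for DE (left) and EpiSC (right). Lefty2 lies at 0.849% in DE and 1.07% in EpiSC, and Skil with 1 DE peak at 82.8%.

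The excess of DE peaks was smaller around these genes than in the lists as a whole. There were 2.24 DE peaks per EpiSC peak within 50 kb of the 9 genes, against 6.29 among peaks within 50 kb of any coding gene and 6.76 in the full lists. Counting only peaks whose nearest gene was a member gave 22 DE and 10 EpiSC peaks, a ratio of 2.2. The direction depended on how many DE peaks entered: when only the 6319 widest DE peaks entered, as many as the EpiSC list holds, 11 DE peaks remained against 25 EpiSC peaks, a ratio of 0.44. Among peaks near any coding gene this subset gave a ratio of 0.90.

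Sharing was asymmetric. A DE peak met 20 of the 25 EpiSC peaks, counting any overlap of 1 bp or more (80.0%, with a Wilson interval at 95% of 60.9 to 91.1%). Among EpiSC peaks near any coding gene the share was 80.2%. Of the 56 DE peaks, 20 overlapped an EpiSC peak (35.7%, 24.5 to 48.8%), against 12.8% of DE peaks near any coding gene. Both shares count the same 20 pairs, so the asymmetry follows from the numbers of peaks. With like EpiSC shares, the higher DE share restates the ratio of 2.24 against 6.29 and is no separate result. The DE share was similar for peaks assigned to a member (8 of 22, 36.4%) and for those assigned to a neighbour (12 of 34, 35.3%). The intervals allow for counting error alone, and peaks of 1 locus are not independent of each other. With the 6319 widest DE peaks, 28.0% of the EpiSC peaks were shared, against 30.4% of those near any coding gene. Of the 11 DE peaks in that subset 63.6% were shared, against 33.1%.

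The ligand gene Nodal (chromosome 10, 61417972 to 61425338, plus strand) kept its main site across the states. The widest peak lay 11.7 kb before the gene and spanned 61406002 to 61406511 in DE (510 bp) and 61406002 to 61406523 in EpiSC (522 bp), with the same first base. Each was at least as wide as 98.9% of the peaks in its list. A second shared site lay inside the gene just after its start, from 61418122 to 61418261 in DE (140 bp) and from 61418165 to 61418259 in EpiSC (95 bp). DE added 2 sites assigned to Nodal: a peak of 105 bp centred 7.61 kb before the gene and one of 210 bp inside it, centred 1.33 kb after the start. All 4 EpiSC peaks in the window, those at Pald1 and Eif4ebp2 included, overlapped a DE peak.

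At Tdgf1 (chromosome 9, 110939608 to 110946158, minus strand), which encodes the co-receptor Cripto, 3 EpiSC peaks stood side by side upstream of the start within 1709 bp. They were 155, 543 and 239 bp wide and centred 540, 1352 and 2052 bp before the start. Each overlapped a DE peak, of 160, 389 and 325 bp. The EpiSC peak of 543 bp was the widest EpiSC peak near any of the 9 genes, and its DE counterpart measured 389 bp. Overlap was partial at the site closest to the start, where 62 bp were common to both peaks. DE added a peak of 95 bp inside the gene, one of 108 bp, 3.23 kb upstream, that was assigned to Lrrc2, and one of 138 bp, 42.9 kb away, assigned to Gm43127. One EpiSC peak of 198 bp, 48.8 kb from Tdgf1 and assigned to Rtp3, had no DE counterpart.

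Acvr2b (chromosome 9, 119401583 to 119442148), a type II Activin receptor gene, had 4 DE peaks and no EpiSC peak. The peak assigned to it was the 73 bp printed above, at least as wide as 10.5% of DE peaks. It lies within the RefSeq gene range but before the start that the promoter table gives, so it counts as inside the gene here. The others were 175, 207 and 62 bp wide and were assigned to Acaa1a and Exog, and that of 207 bp lay on the Exog promoter. Within 100 kb of Acvr2b there were 9 DE and 3 EpiSC peaks, so the lack of EpiSC peaks holds for the 50 kb window. Of the 4 DE peaks, 2 were at least as wide as the narrowest EpiSC peak (78 bp) and none was among the 6319 widest.

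Foxh1 (chromosome 15, 76667829 to 76671614) encodes the forkhead cofactor that brings SMAD complexes to DNA. Its window held 12 other coding genes, the most of any member, and of its 13 DE peaks 1 was assigned to Foxh1. That peak, of 130 bp at 76670176 to 76670305, lay inside the gene and had no EpiSC counterpart. Another DE peak, at 76671437 to 76671637 (201 bp), lay across the upper end of the gene, overlapped an EpiSC peak of 139 bp and was assigned to Ppp1r16a. All 6 EpiSC peaks in the window were shared with DE, and they were assigned to Tonsl, Cyhr1, Ppp1r16a, Mfsd3 and Lrrc24.

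Lefty2 (chromosome 1, 180893108 to 180899107) and Lefty1 (180935022 to 180938401) encode closely related secreted inhibitors of Nodal and lie 35914 bp apart, so their windows overlap. All peaks of the Lefty1 window were also in that of Lefty2, which leaves 16 DE and 7 EpiSC peaks at the locus, 5 of each shared. No peak centre lay inside either gene. Between the genes were 8 DE and 2 EpiSC peaks.

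A wide shared peak stood on the lower-coordinate side of each Lefty gene. At Lefty2 the DE peak measured 486 bp and the EpiSC peak 392 bp, centred 4.30 kb from the gene. At Lefty1 the widths were 368 bp (DE) and 429 bp (EpiSC), with centres 10.2 kb from the gene. A further shared site, of 485 and 265 bp, lay 15.0 kb from Lefty2 and was assigned to the predicted gene Gm18036. In DE, 98.7% of peaks were no wider than those of Lefty2 and Gm18036 and 95.5% no wider than that of Lefty1. In EpiSCs the shares were 96.3% for Lefty2, 97.3% for Lefty1 and 87.1% for Gm18036. The genes are close relatives in sequence, and how reads matching both were treated in the HA lists was not checked here.

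DE added peaks around these anchors. DE-only peaks are the rule in this list: 11.7% of all DE peaks were shared, and 5 of 16 at this locus. Beside Lefty1 there were 4 DE-only peaks, of 74, 242, 329 and 82 bp, centred between 9.82 kb and 166.5 bp from the gene. Beside Lefty2 there were DE-only peaks of 243 bp at 8.92 kb and 128 bp at 3.69 kb on the same side. On the other side were 3 further DE-only peaks of 69 to 193 bp, the closest of them 2198 bp from Lefty2. Close to Lefty1 the states had different sites: an EpiSC-only peak of 147 bp was centred 1097 bp from the gene, and the nearest DE peak, of 82 bp, began 816 bp farther on. A second EpiSC-only peak at the locus, of 178 bp, lay 18.9 kb from Lefty2.

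Cer1 (chromosome 4, 82881751 to 82885151, minus strand) encodes Cerberus, a secreted antagonist of Nodal and of other ligands made by anterior endoderm. In EpiSCs its assigned sites amounted to 1 peak of 99 bp centred 1178 bp before the start. In DE there were 3 peaks within 1287 bp: 308 bp centred 124.5 bp before the start, 329 bp centred 587 bp before it and 224 bp centred 1145.5 bp before it. The EpiSC peak lay inside the third of these. The summed width of assigned peaks was thus 99 bp in EpiSC and 861 bp in DE. The other members with assigned peaks in both states also had more in DE: 617 and 965 bp at Nodal, 576 and 1095 bp at Lefty1, 392 and 857 bp at Lefty2, and 937 and 969 bp at Tdgf1. Skil had an assigned peak in EpiSCs only (104 bp), and Foxh1, Smad7 and Acvr2b in DE only. The full lists hold 6.76 DE peaks per EpiSC peak, with median widths of 138 and 141 bp. More summed width in DE is therefore no mark of these genes. A peak of 516 bp, the widest DE peak near any of the 9 genes, lay 32.5 kb from Cer1, was assigned to Zdhhc21 and contained an EpiSC peak of 82 bp.

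No peak near the intracellular inhibitors Smad7 and Skil was shared between the states, and neither was any near the receptor gene Acvr2b. A shared peak lay within 50 kb of 37.1% of coding genes, so its absence is common. Smad7 (chromosome 18, 75367365 to 75395935) encodes the inhibitory SMAD that blocks the receptors. It had 1 DE peak inside the gene (102 bp) and 3 more, of 86 to 163 bp, at 33.3 kb or farther. Its EpiSC peak was wide, at 384 bp, lay 6.34 kb from the gene, was assigned to Gm20544 and had no DE counterpart within 9517 bp. Skil (chromosome 3, 31095058 to 31122923) encodes SnoN, a repressor that binds SMAD proteins. It had 1 EpiSC-only peak of 104 bp at 5.47 kb and 1 DE peak of 131 bp at 26.9 kb, the one on the Cldn11 promoter.

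**Figure D3:**
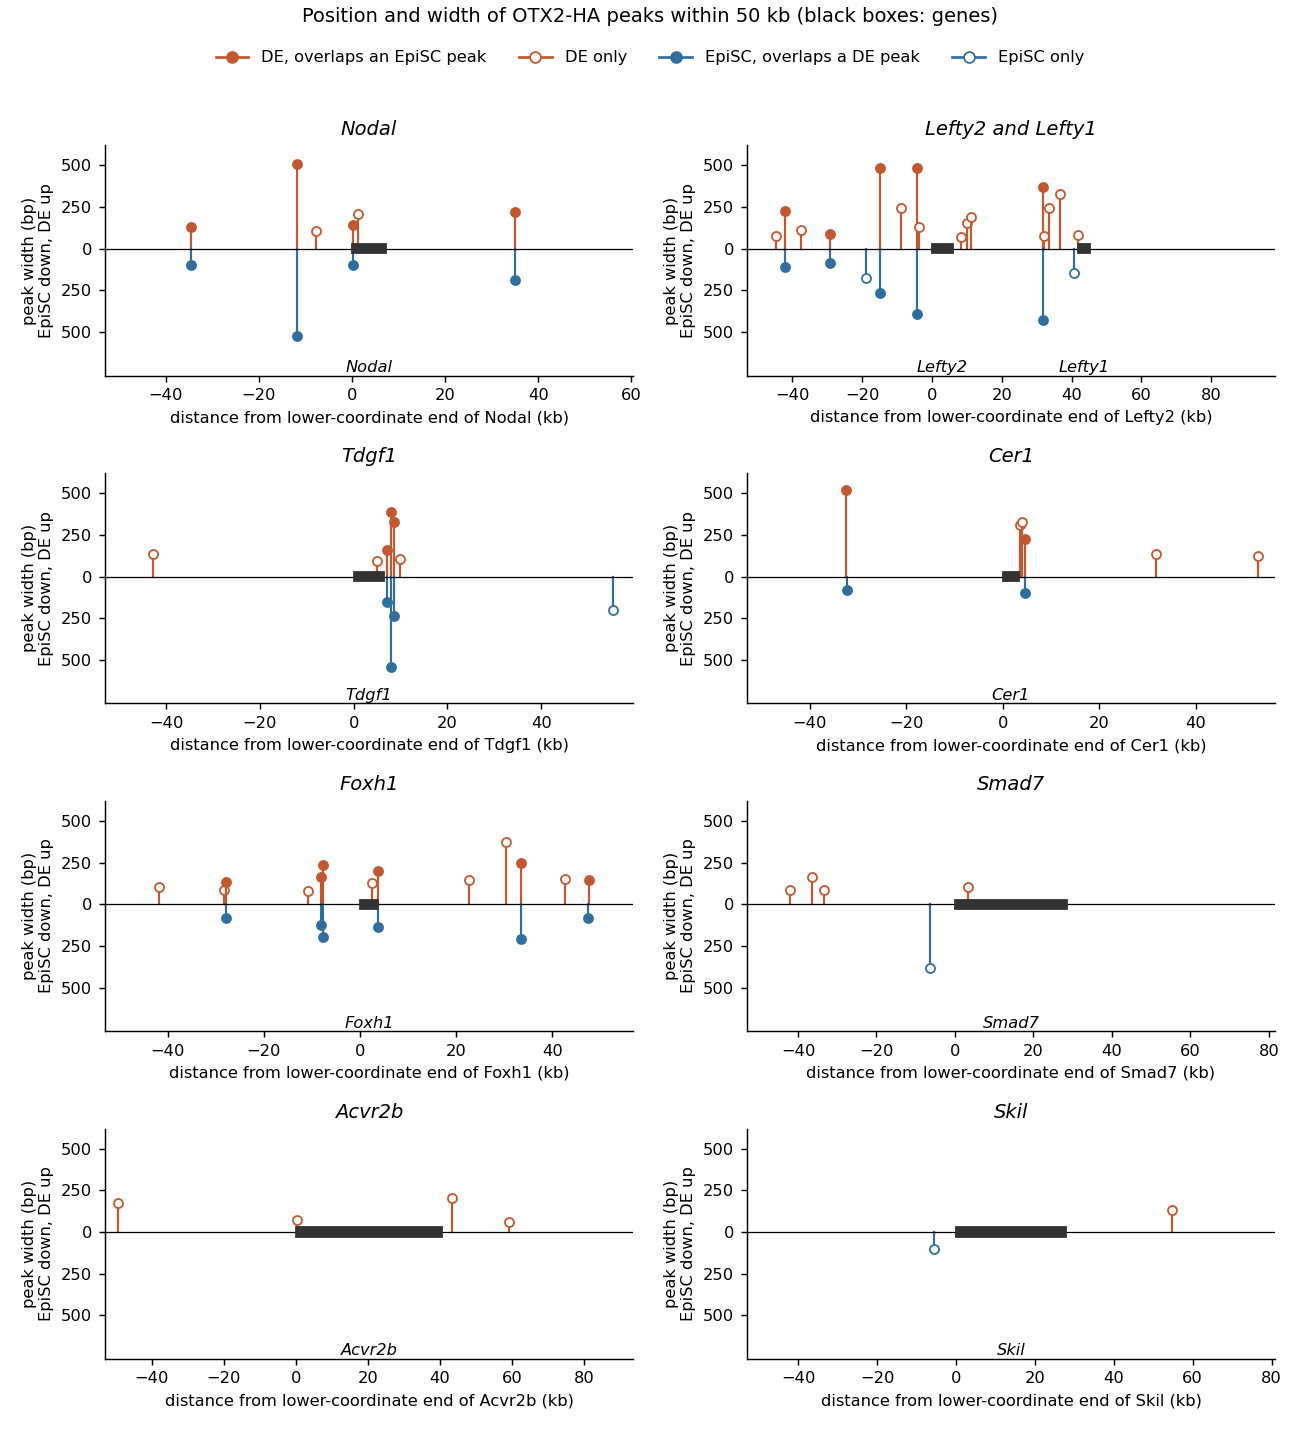
Peaks around the 9 genes by distance from the lower-coordinate end of the gene (x axis, kb) and width (y axis, bp), DE upward in orange and EpiSC downward in blue; filled circles overlap a peak of the other state, open circles do not, and black boxes are the genes. Wide shared sites stand next to Nodal, Tdgf1, Lefty2 and Lefty1, whereas Smad7, Acvr2b and Skil have open circles only.

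The 5 EpiSC-only peaks were those named above at Lefty2, Lefty1, Tdgf1, Smad7 and Skil. Such a peak lay near 5 of the 9 members, against 10.8% of coding genes, and the one closest to Lefty1 also lies in the window of Lefty2. Their median width was 178 bp, against 125 bp over all EpiSC-only peaks. The gap to the nearest DE peak ranged from 816 bp at Lefty1 to 60099 bp at Skil.

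The widths of shared and unshared DE peaks were those of the DE list as a whole. The 20 shared DE peaks had a median width of 225.5 bp (range 87 to 516 bp) and the 36 DE-only peaks one of 129 bp (62 to 371 bp), next to 224 and 129 bp over the whole list. In EpiSCs the 20 shared peaks had a median of 147 bp and the 5 unshared ones 178 bp, next to 147 and 125 bp over the whole list. Peaks assigned to a member had a median of 217 bp in DE (n = 22) and 197 bp in EpiSC (n = 10), against 138 and 141 bp over all peaks. Those assigned to a neighbour had medians of 141 bp (n = 34) and 139 bp (n = 15). Of the 22 DE peaks assigned to a member, 8 belonged to the widest 6319, a class that holds 14.8% of the DE list.

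Among the 20 overlapping pairs the DE peak was the wider one in 17 (85.0%), against 77.9% of 5035 pairs genome-wide. The 3 exceptions were the upstream site of Nodal (510 bp in DE, 522 bp in EpiSC), the wide site of Lefty1 (368 and 429 bp) and the middle site of Tdgf1 (389 and 543 bp). All 3 were assigned to a member, so of the 8 pairs assigned to a member 5 (62.5%) were wider in DE, a share below the genome-wide one. Over the 20 pairs the median difference was 42 bp in favour of DE, compared with 62 bp over all pairs genome-wide. The centres of a pair lay a median of 18.75 bp apart, at most 132 bp, next to a median of 25 bp over all pairs. The EpiSC peak lay wholly inside the DE peak in 14 of 20 pairs (70%), next to 61.2% of all pairs.

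**Figure D4:**
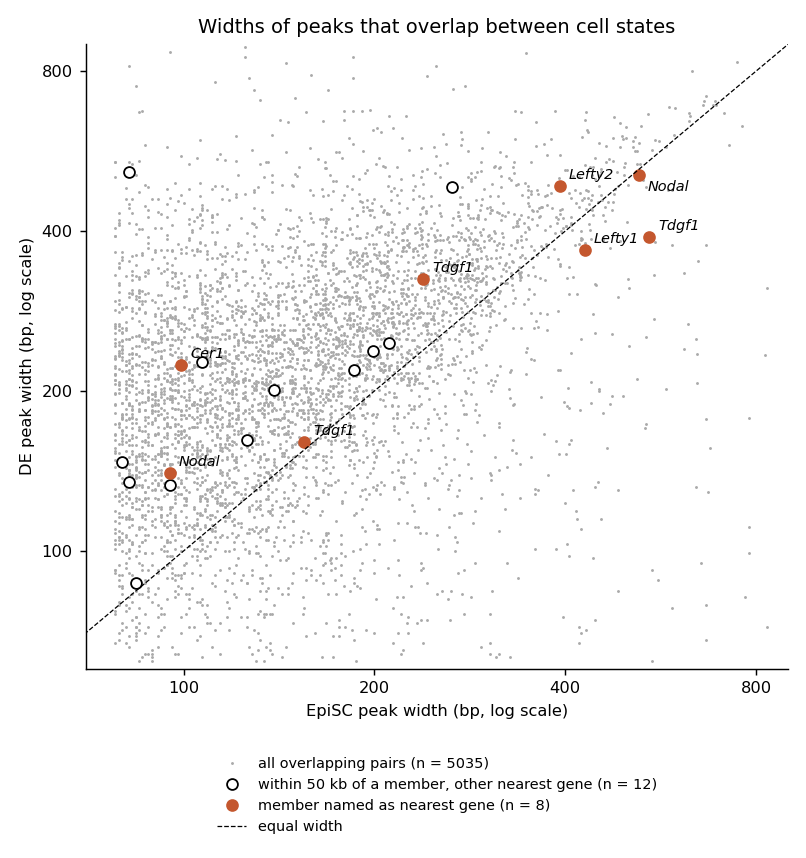
Width of the DE peak (y axis, bp, log scale) against that of the overlapping EpiSC peak (x axis, bp, log scale) for all pairs (grey, n = 5035, of which 22 lie beyond the axes), for the 12 pairs within 50 kb of the 9 genes that were assigned to neighbours (open circles) and for the 8 assigned to a member (orange). Points above the dashed line are wider in DE; 3 of the 8 labelled pairs, at Nodal, Lefty1 and Tdgf1, lie below it.

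The sites were spread over the windows. Inside a member lay 7 DE and 2 EpiSC peak centres, within 1 kb outside it 4 and 1, from 1 to 10 kb 17 and 9, and farther out 28 and 13. Within 1 kb of the start of any gene were 37.5% of the DE peaks (26.0 to 50.6%) and 48.0% of the EpiSC peaks (30.0 to 66.5%), against 24.5% and 46.6% of peaks near any coding gene. Within 2 kb the shares were 53.6% and 60%, against 30.7% and 53%. The Foxh1 window, with the most neighbouring genes, held 9 of the 21 DE and 6 of the 12 EpiSC peaks within 1 kb of a start. Without Foxh1 the shares within 1 kb were 27.9% in DE (16.7 to 42.7%) and 31.6% in EpiSCs (15.4 to 54.0%), so the EpiSC share then lay below that of peaks near any coding gene. Of the peaks within 1 kb of a start most were assigned to neighbours, 15 of 21 in DE and 10 of 12 in EpiSC. Among all peaks assigned to a neighbour, 15 of 34 and 10 of 15 lay that close to a start. Among those assigned to a member it was 6 of 22 and 2 of 10. In DE, 39 of 56 peaks had another DE peak within 5 kb (69.6%), against 38.3% of all DE peaks, and in EpiSCs the shares were 28.0% and 21.9%. Within 1 kb the shares were 25% against 16.6% in DE and 20.0% against 10.4% in EpiSCs.

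No IgG peak of tagged EpiSCs and no anti-HA peak of the parental line lay within 50 kb of any of the 9 genes, and the closest was 658296 bp from Tdgf1. None of the 56 DE and 25 EpiSC peaks overlapped one, which allows shares of up to 5.36% and 12% by counting error. Such overlap was rare throughout, at 0.0819% of all DE and 0.791% of all EpiSC peaks, and 0.932% of coding genes had a control peak within 50 kb. The absence near 9 genes is therefore no mark of these genes. The edge of the window was occupied: DE peaks of 123 bp at 49.4 kb from Cer1 and 175 bp at 49.3 kb from Acvr2b were just inside, and DE peaks of 131 bp at 50.2 kb from Foxh1 and 181 bp at 50.4 kb from Nodal just outside.

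Of 30 other genes of the pathway, 29 had a DE peak within 50 kb and 18 an EpiSC peak, against 82.8% and 40.8% of coding genes. The medians were 6 and 1 peaks per gene, against 3 and 0 over all coding genes. Their windows also include the gene body, and no comparison with genes of like length was made for this list. A shared EpiSC peak lay near 16, against 37.1% of coding genes, and an EpiSC-only peak near 4, against 10.8%. The most DE peaks were near Acvr1b, the type I receptor gene (17 DE, 1 EpiSC), Furin, a convertase that matures the ligands (13 and 1), and Inha, the inhibin alpha subunit gene (12 and 1). Next came Cfc1, the gene of a co-receptor related to Cripto (10 and 1), and the target gene Eomes (9 and 5). The authors' deposited table assigned no DE peak at any distance to Acvr1b, Furin or Inha, while it assigned 5 to Cfc1 and 7 to Eomes. EpiSC-only peaks lay near Trim33 (2), Eomes (2), Fst, which encodes the Activin antagonist follistatin (1), and Pmepa1 (1). Smad4, the common partner of the SMAD proteins, had no peak of either state.

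By role, an EpiSC peak lay near 3 of 6 ligand and convertase genes, 3 of 5 receptor genes, 2 of 5 transducer and cofactor genes, 7 of 10 inhibitor genes and 3 of 4 target genes, next to 40.8% of all coding genes. Smad2 and Smad3, which carry the signal to the nucleus, had 8 and 7 DE peaks, with no EpiSC peak at Smad2 and 1 at Smad3. Both are long genes (70659 and 111229 bp), which widens their windows.

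The combined count of Lefty2 was reached in both lists by 16 of 21900 coding genes, itself included. Over its numbers of DE, EpiSC and shared EpiSC peaks, the most similar genes were Dohh (16, 7 and 6) and Jarid2 (16, 6 and 5). They were followed by Fcgr1, Fzr1 and Gm48552 with 15, 7 and 6 each. Dohh, Fzr1 and Gm48552 are neighbours on chromosome 10 and share peaks, and the likeness rests on 3 counts from 2 lists.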

How the data were processed

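CUT&RUN peak lists were analysed for tagged EpiSCs and DE. Per the submitters' processing notes, the authors used Bowtie2 2.3.5.1, SAMtools 1.14, Picard 2.26.10, bedtools 2.30 and MACS2 2.2.6 with build mm10, in roles not given in the sources used here. The HA lists hold intervals only, merged over 50 bp per the file names, and the deposited tables hold the same intervals (42711 of 42711 in DE, 6319 of 6319 in EpiSC) with the nearest gene. The marks for regulated genes were not used. The label of EpiSC HA replicate 2 also names the DE list, which was read as a slip. IgG replicates gave 202, 149 and 200 peaks, and all 149 of replicate 2 recur in replicate 3, so they were not independent.

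Gene positions came from RefSeq GRCm38.p6. Gene starts came from its promoter table where a gene had an entry (27025 genes) and were otherwise taken as either gene end. Distances run from peak centre to the closer gene end. Overlap meant at least 1 bp. Widths served as the only measure of a peak, since the lists hold no score. The counting of windows and overlaps was checked on simulated intervals with known answers, which is no test of the observed counts. Wilson intervals are at 95%. Python 3.11.15, pandas 2.3.3 and scipy 1.17.1 were used.

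The 9 genes, the pathway list and the comparisons were chosen with earlier results of these data known. The rule for named genes was as follows: all members; of the 30 other pathway genes the 6 with the most DE peaks (1 of them is not reported here), those with an EpiSC-only peak and those with no DE peak; the 5 coding genes over 100 kb from any member closest to Lefty2 in its counts; and neighbours named by the authors' deposited table. Smad2 and Smad3 were named outside that rule, after their values had been seen. Windows, overlap rules, peak subsets and member subsets were varied.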

Additional observations from a re-analysis of the deposited data

How the results depend on the processing

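No paired analysis was possible because each state has a single pooled HA list, which also means that leaving out an HA replicate could not be done. Of 17 alternatives 3 were chosen after seeing the data. No member peak overlapped a control peak, so leaving out such peaks, or an IgG replicate, could change nothing (0 overlaps each time) and tests nothing. With a 25 kb window there were 34 DE and 16 EpiSC peaks, and with 100 kb 87 DE peaks, as the area changed. With the 6319 widest DE peaks there were 11 DE peaks, a ratio of 0.44 in the opposite direction, 28.0% of EpiSC and 63.6% of DE peaks shared, a median DE width of 371 bp and 18.2% of DE peaks near a start. This choice selects on width. Peaks assigned to a member numbered 22 in DE and 10 in EpiSC, with a median DE width of 217 bp and 20.0% of EpiSC peaks near a start. Within 2 kb of a start were 53.6% of DE peaks. Without Foxh1 the EpiSC share near a start was 31.6%, against 48.0% with it. Among 108 counts for single genes 29 changed by over 1.5 times, all with another window, a minimum width or the widest DE peaks.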
